A study of Mus musculus with 2 samples.

Results

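Genes that call monocytes and eosinophils into tissue were followed across the cells of mouse liver metastases. They are 5 CC chemokines, Ccl2 (ENSMUSG00000035385), Ccl7 (ENSMUSG00000035373), Ccl8 (ENSMUSG00000009185), Ccl12 (ENSMUSG00000035352) and Ccl24 (ENSMUSG00000004814), and 1 receptor, Ccr2 (ENSMUSG00000049103). They were chosen by symbol, each symbol named 1 row, and together they are 6 of the 56941 gene rows in the count matrices. The cells came from liver lesions of MC38-LM3b, a derivative of the mouse colorectal cancer line MC38 that was selected in mice for growth in the liver. The tumor cells carried either a scrambled hairpin (MC38-LM3b-shScramble, Ctrl) or a hairpin against SLAMF3 (MC38-LM3b-shSLAMF3, KD), a receptor of the SLAM family that is encoded by Ly9. In both groups the tumor cells were injected into the spleen of C57BL/6 mice aged 6 to 8 weeks, lesions were collected 2 weeks later, and CD45+ cells were enriched before droplet-based 3′ single-cell RNA sequencing. Lesions of 3 mice were pooled into 1 library per group, which leaves the spread between mice unmeasured, and no test was made. Every interval given in parentheses is a 95% interval that covers counting error only. The hairpin was present in the injected tumor cells and not in the host cells that gave nearly all of the data, and it was expressed in 1 tumor line only.

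CC chemokines are small secreted proteins that guide leukocytes along a gradient through receptors on the cell surface. CCL2, CCL7 and the mouse protein CCL12 bind CCR2, the receptor through which classical monocytes leave the bone marrow and enter inflamed tissue and tumors. Mouse CCL8 acts mainly on CCR8, and CCL24, also called eotaxin 2, acts on CCR3, the main chemokine receptor of eosinophils.

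Promoters of Ccl8, Ccl12 and Ccr2, 3 of the 6 genes, were matched in the RefSeq table used and are shown for that reason. Of these genes, Ccl8 and Ccl12 were lower in KD in each of the 5 large macrophage sub-clusters described later. In some of these, Ccl8 was near the background. Ccr2 was not lower in any of them. Whether the promoter sequences bear on these values was not tested. Each is the 250 bases before the start of the gene, on the plus strand of GRCm38.p6, 5′ to 3′, with a match to TATAAA in capitals. These coordinates belong to GRCm38.p6, while the reads were counted on GRCm39. The Ccl8 window is chr11:82114935-82115184, the Ccl12 window is chr11:82101595-82101844 and the Ccr2 window is chr9:124101933-124102182.
Ccl8: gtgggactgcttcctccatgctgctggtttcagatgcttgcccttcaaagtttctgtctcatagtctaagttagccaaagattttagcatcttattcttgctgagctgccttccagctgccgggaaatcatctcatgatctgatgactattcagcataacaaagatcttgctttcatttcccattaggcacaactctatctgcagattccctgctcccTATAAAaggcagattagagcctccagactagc
Ccl12: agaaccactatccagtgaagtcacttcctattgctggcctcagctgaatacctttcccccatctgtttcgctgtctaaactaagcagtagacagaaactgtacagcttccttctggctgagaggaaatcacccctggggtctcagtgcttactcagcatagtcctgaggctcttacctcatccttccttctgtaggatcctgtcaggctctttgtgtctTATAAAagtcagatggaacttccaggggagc
Ccr2: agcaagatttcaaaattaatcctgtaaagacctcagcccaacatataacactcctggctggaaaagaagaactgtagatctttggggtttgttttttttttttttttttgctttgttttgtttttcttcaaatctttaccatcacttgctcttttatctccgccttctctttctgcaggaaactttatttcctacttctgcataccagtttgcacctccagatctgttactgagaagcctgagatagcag
TATAAA lay 32 to 27 bases before the start of Ccl8 and 31 to 26 bases before the start of Ccl12, and the Ccr2 window did not hold it. It was present in 12.4% of 32851 windows of the same length. The windows were also searched on both strands for the NF-kappa B motif (in 7.25% of all windows), the STAT motifs, which are TTC and GAA with 3 bases between them (7.02%) or 4 bases between them (5.85%), the interferon response motif, which is GAAA and GAAA with 2 bases between them (2.98%), and the AP-1 motif TGANTCA (6.75%). None of the 3 windows held any of these motifs.

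Depth was read from unique molecular identifiers (UMIs), each of which stands for 1 captured RNA molecule, and came to 67207234 UMIs over 10416 cells for Ctrl and 64444715 UMIs over 10943 cells for KD. Filtering left 9814 Ctrl cells (median 5411.5 UMIs) and 10185 KD cells (median 4989 UMIs), and 24 barcodes occurred among the kept cells of both libraries. Ly9 itself had 1349 UMIs in Ctrl and 1157 in KD over all kept cells, or 21.0 and 18.8 CPM (counts of the gene per 1000000 UMIs of those cells, the unit of all levels given here), a log2 ratio of KD over Ctrl of -0.16 (-0.28 to -0.05). In the cluster with keratin and collagen genes it had 12 and 7 UMIs, so the knockdown could not be checked. Chemokine and receptor genes were left out of the genes used for clustering, and classes were named from marker lists, with 3 of 18 clusters left unnamed. The largest class that expressed the members, monocytes and macrophages, held 3208 Ctrl and 2632 KD cells (medians 6321.5 and 7877.5 UMIs), and all 15 of its listed markers were detected in both libraries, at a summed level of 12278 and 14640 CPM. The Kupffer cell class, the resident macrophages of the liver, held 47 Ctrl and 83 KD cells and met 7 of 7 of its markers. Transcripts that define eosinophils were close to absent. Epx, which encodes eosinophil peroxidase, had 1 Ctrl and 2 KD UMIs over all cells, Prg2 had 1 and 9, Prg3 had 0 and 11, and Ear6 had 2 and 2. Siglecf had 53 and 146 UMIs and Il5ra had 63 and 97.

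To learn which cells expressed each ligand, UMIs were summed per class and library. Ccl2, the principal ligand of CCR2, was highest in the cluster of tumor-like or fibroblast-like cells, at 1886 CPM in Ctrl (1827 to 1947) and 1491 CPM in KD (1425 to 1558). This cluster was 1.64% of the kept cells in Ctrl and 0.933% in KD, but it gave 26.0% and 16% of all Ccl2 UMIs, although cells without CD45 should be depleted by the selection. Within it, the sub-cluster with keratin genes had 2318 and 1489 CPM in Ctrl and KD, a log2 ratio of -0.64 (-0.77 to -0.51), the cycling sub-cluster had 1884 and 2322 CPM, a log2 ratio of 0.30 (0.18 to 0.43), and the sub-cluster led by Slit3 and Col1a1 had 752 and 722 CPM, a difference within the counting interval. The Ccl2 of these cells was thus lower in one sub-cluster and higher in another in KD. Both sub-clusters are small, with 44 Ctrl and 25 KD keratin cells and 49 and 21 cycling cells. Intervals from UMIs do not cover how few cells carried them. In Ctrl, Kupffer cells (446 CPM, 384 to 515) and monocytes and macrophages (397 CPM, 389 to 406) followed, with intervals that overlapped. In KD, monocytes and macrophages (380 CPM) came second and Kupffer cells (192 CPM) lay lower. Granulocytes had 105 and 66.3 CPM, endothelial cells 85.3 and 46.1 CPM, and CD8+ T cells, the lowest class, 9.78 and 6.85 CPM.

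The other ligands were concentrated in macrophages. Ccl7, a second CCR2 ligand, was highest in Kupffer cells in Ctrl (253 CPM, 207 to 306), ahead of monocytes and macrophages (132 CPM). In KD this order was turned, with 112 CPM (108 to 117) in monocytes and macrophages and 70.6 CPM (51.3 to 94.7) in Kupffer cells. Ccl12 was highest in monocytes and macrophages in both libraries, at 250 CPM in Ctrl and 176 CPM in KD, and this class held 87.6% and 88.2% of its UMIs. Ccl8 was highest in Kupffer cells in both libraries, at 1390 CPM in Ctrl and 138 CPM in KD, followed by monocytes and macrophages at 229 and 68.1 CPM. The unnamed cluster led by Cadm1 and Slc8a1, which carried 4 macrophage markers, was the third for Ccl8 in both libraries, at 167 and 21.3 CPM. Ccl24 was highest in Kupffer cells in both libraries, at 622 CPM in Ctrl and 1291 CPM in KD. Monocytes and macrophages were the fifth for Ccl24 in Ctrl (15.5 CPM, with an interval that overlapped those of endothelial cells and cDCs) and second in KD (157 CPM). As a result, Kupffer cells held 34.1% of the Ccl24 UMIs in Ctrl and 17.3% in KD, while being 0.479% and 0.815% of the cells, and monocytes and macrophages held 47.8% and 75.7%.

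**Figure D1:**
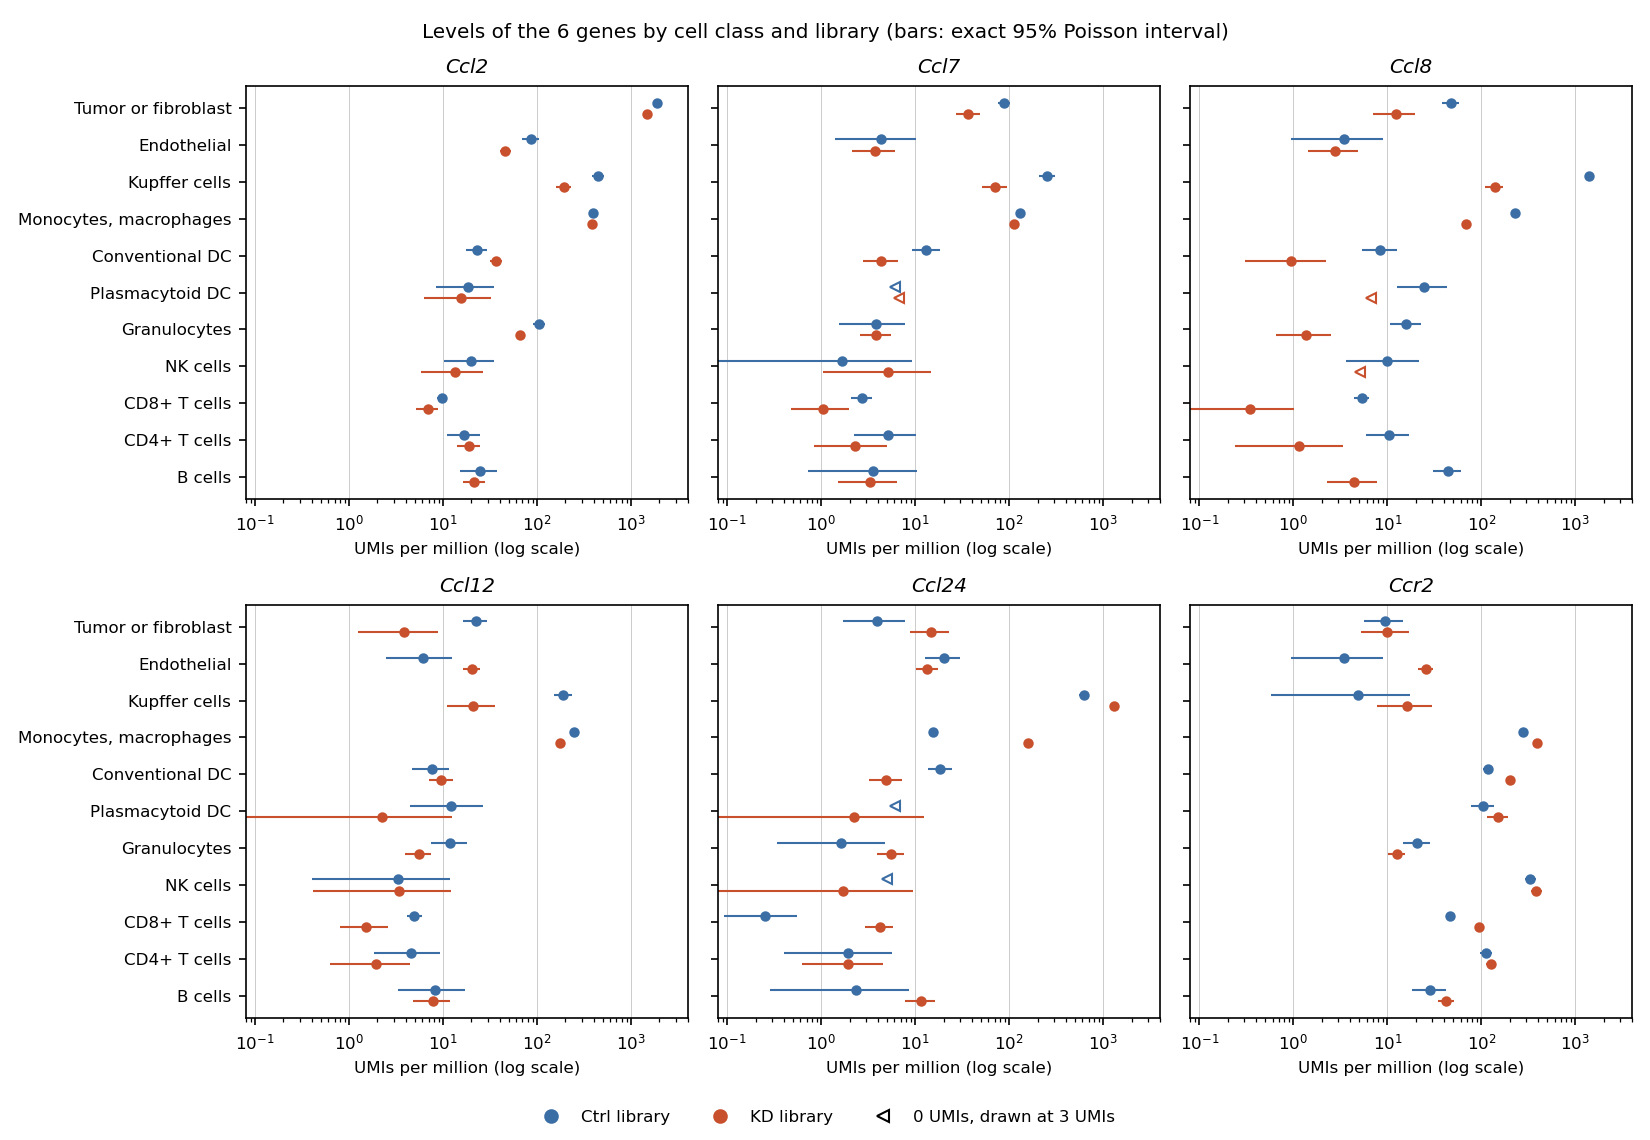
Counts per 1000000 UMIs (CPM, log axis) of each gene in 11 cell classes, with Ctrl in blue and KD in red; bars are exact 95% Poisson intervals and an open triangle marks 0 UMIs, drawn at the level of 3 UMIs. Ccl2 peaks in tumor-like or fibroblast-like cells (1886 and 1491 CPM), and Ccl8 and Ccl24 peak in Kupffer cells. Ccr2 has 280 and 389 CPM in monocytes and macrophages. The NK-like cells described later, drawn as NK cells, lie above this level in Ctrl and near it in KD.

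T cells are not known to express these 5 ligands as macrophages do, so CD4+ and CD8+ T cells together (3218 Ctrl and 1618 KD cells, medians 6608 and 5582.5 UMIs) were used to read the level found in cells that should lack them. This level includes free RNA and cells that carry RNA of more than 1 type, which were not separated, since a CD8+ sub-cluster of 88 and 48 cells held macrophage markers at 2699 and 1849 CPM. Ccl2 stood there at 10.2 CPM in Ctrl and 9.63 CPM in KD, and was found in 4.91% and 4.76% of the cells. Ccl8 stood at 5.64 and 0.535 CPM (3.64% and 0.371% of cells), so the level in T cells was lower in KD together with that in macrophages. Ccl24 stood at 0.358 and 3.66 CPM (0.249% and 1.61% of cells) and was higher in KD together with that in macrophages. Ccl7 stood at 2.86 and 1.34 CPM and Ccl12 at 4.93 and 1.61 CPM. These levels in T cells are read as background and not as expression, and the shares of macrophages with a UMI given for each ligand are many times higher.

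**Figure D2:**
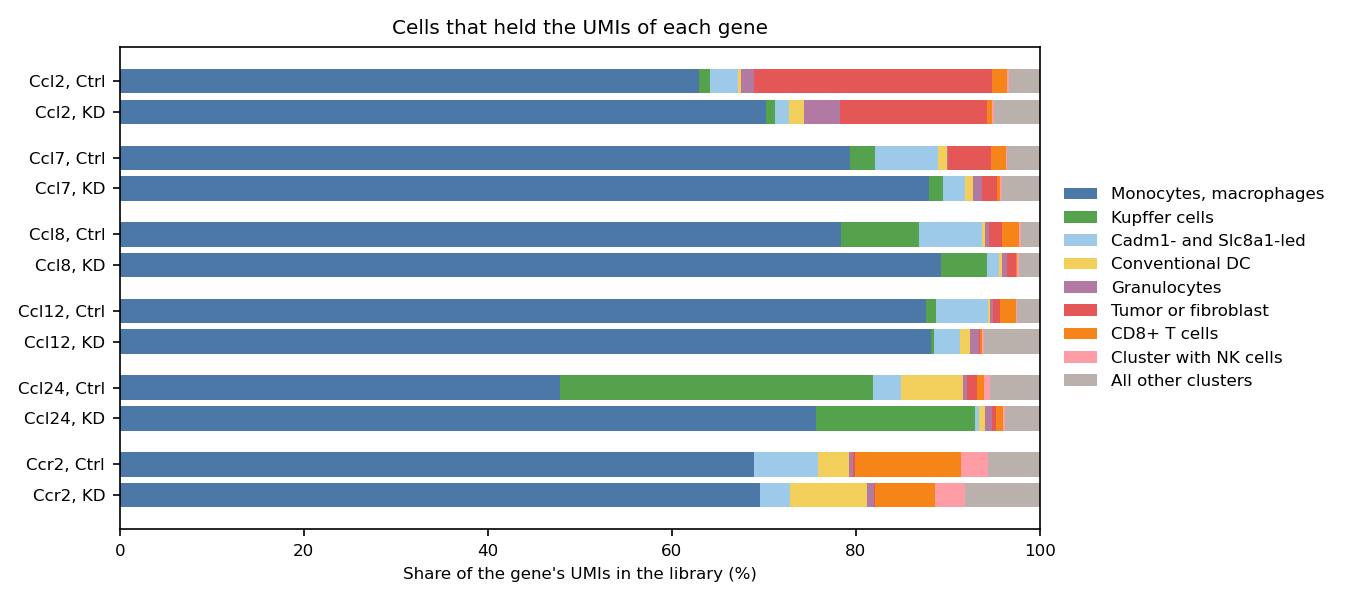
Share (%) of the UMIs of each gene that came from each cell class, as stacked bars with 1 bar per library. Monocytes and macrophages hold most UMIs of each gene except Ccl24 in Ctrl (47.8%), where Kupffer cells hold 34.1%, and tumor-like or fibroblast-like cells hold 26.0% of the Ccl2 UMIs in Ctrl.

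The CCR2 ligands differed little between the libraries in monocytes and macrophages as a whole. Ccl2 had 9275 UMIs in Ctrl and 8544 in KD, or 397 and 380 CPM, a log2 ratio of -0.06 (-0.11 to -0.02), and 48.3% and 47.1% of the cells held a UMI. After each cell was thinned to 1500 UMIs these shares were 26.0% and 23.8%. Ccl7 had 3074 and 2524 UMIs, or 132 and 112 CPM, a log2 ratio of -0.23 (-0.31 to -0.15), in 19.9% and 17.9% of cells (9.32% and 7.46% after thinning). Ccl12 was further apart, with 5838 and 3950 UMIs, or 250 and 176 CPM, a log2 ratio of -0.51 (-0.57 to -0.45), in 36.3% and 25.5% of cells (17.4% and 11.3% after thinning). The Ccl12 ratio was -0.23 (-0.29 to -0.17) without sub-clusters of which 1 library made up over 90%. Among 12932 genes with at least 50 UMIs in this class, 10.6% had a lower ratio than Ccl12, 24.5% a lower one than Ccl7 and 41.1% a lower one than Ccl2.

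Ccl24 and Ccl8 stood at opposite ends of the members. Ccl24 had 362 UMIs in Ctrl and 3516 in KD, or 15.5 CPM (14.0 to 17.2) and 157 CPM (151 to 162), which is 10.1-fold higher in KD (9.06 to 11.3). It was found in 3.18% of Ctrl and 20.3% of KD macrophages (1.09% and 9.80% after thinning), and 0.116% of the genes had a higher ratio. Ccl8 had 5343 and 1529 UMIs, or 229 CPM (223 to 235) and 68.1 CPM (64.7 to 71.6), which is 3.36-fold lower in KD. It was found in 15.7% and 6.95% of cells (7.85% and 2.96% after thinning), and 0.294% of the genes had a lower ratio. Ccl24 was the 1 member with a log2 ratio of at least 1, which 2.49% of all 12932 genes reached, and Ccl8 the 1 member at -1 or below, which 2.64% reached. The median log2 ratio of the 6 members was -0.15, against 0.00398 over all these genes.

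Both of these ligands came from few cells. The 1% of Ctrl macrophages with most Ccl24 held 76.8% of its UMIs, and the top 1% in KD held 35.8%. For Ccl8 the top 1% held 46.7% in Ctrl and 65.3% in KD, and single cells reached 247 and 110 UMIs. The corresponding shares were 18.4% and 19.5% for Ccl2, 28.0% and 31.5% for Ccl7, and 18.5% and 26.4% for Ccl12. Ccl8 was thus carried by a smaller share of cells in KD, whereas Ccl24 was spread over a larger one.

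To compare like cells, macrophages were split into 11 sub-clusters, of which 5 held at least 50 cells in each library. They were a C1q TAM-like sub-cluster (tumor-associated macrophages marked by the complement genes C1qa, C1qb and C1qc, with 760 Ctrl and 1018 KD cells), an inflammatory TAM-like sub-cluster with Nos2 and Il1b (953 and 205 cells), a Vcan monocyte-like sub-cluster (394 and 437 cells), a cycling sub-cluster (434 and 127 cells) and an unnamed one led by Ifitm1 and Upp1 (570 and 137 cells). Ccl8 is itself among the leading genes of the C1q TAM-like sub-cluster, although it was not used for the clustering. It was lower in KD in 5 of 5 sub-clusters, with log2 ratios of -3.70 to -2.01, all past -1, as for 0.162% of all genes. In C1q TAM-like cells it stood at 528 CPM in Ctrl and 131 CPM in KD, a log2 ratio of -2.01 (-2.11 to -1.92), and 30.3% and 11.8% of the cells held a UMI. In the Ifitm1 and Upp1-led cells it had 117 and 9.0 CPM (388 and 7 UMIs), and in cycling cells 242 and 22.8 CPM. In inflammatory TAM-like and Vcan monocyte-like cells its levels were low in both libraries, at 13 and 2.72 CPM and at 9.21 and 1.68 CPM, and they rested on 4 and 5 KD UMIs. These levels are near the T cell level of 5.64 and 0.535 CPM, which was also lower in KD. The direction in these sub-clusters therefore cannot be told apart from that of the background. B cells held 43.6 and 4.45 CPM of Ccl8, and tumor-like or fibroblast-like cells 47.3 and 12.2 CPM, also lower in KD. The Ifitm1 and Upp1-led cells stand above these levels in Ctrl only. C1q TAM-like and cycling cells stand above them in both libraries.

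Ccl12 was lower in 5 of 5 sub-clusters too, with log2 ratios of -1.0 to -0.16. The share of all genes that were lower beyond counting error in as many sub-clusters was not counted, for Ccl12 or for Ccl7. The sub-clusters share the same 2 libraries. It was nearest in C1q TAM-like cells, at 333 and 297 CPM, a log2 ratio of -0.16 (-0.25 to -0.08). It was farther apart in Vcan monocyte-like cells, at 24.9 and 12.4 CPM, in inflammatory TAM-like cells, at 127 and 63.3 CPM, and in Ifitm1 and Upp1-led cells, at 360 and 189 CPM. Ccl7 was lower beyond counting error in 4 of 5 sub-clusters, among them C1q TAM-like cells with 185 and 121 CPM, a log2 ratio of -0.61 (-0.73 to -0.49). The lowest ratio, -1.74 (-2.68 to -0.87), was that of Vcan monocyte-like cells, at 18.0 and 5.37 CPM on 39 and 16 UMIs. In inflammatory TAM-like cells its ratio of -0.29 (-0.64 to 0.04) held no difference that could be detected at this depth. Ccl2 had no common direction. It was higher in KD in inflammatory TAM-like cells, at 365 and 420 CPM, a log2 ratio of 0.20 (0.07 to 0.33), lower in Vcan monocyte-like cells, at 142 and 109 CPM, a log2 ratio of -0.38 (-0.60 to -0.15), and within counting error in the other 3. Its level in C1q TAM-like cells was 386 and 379 CPM.

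**Figure D3:**
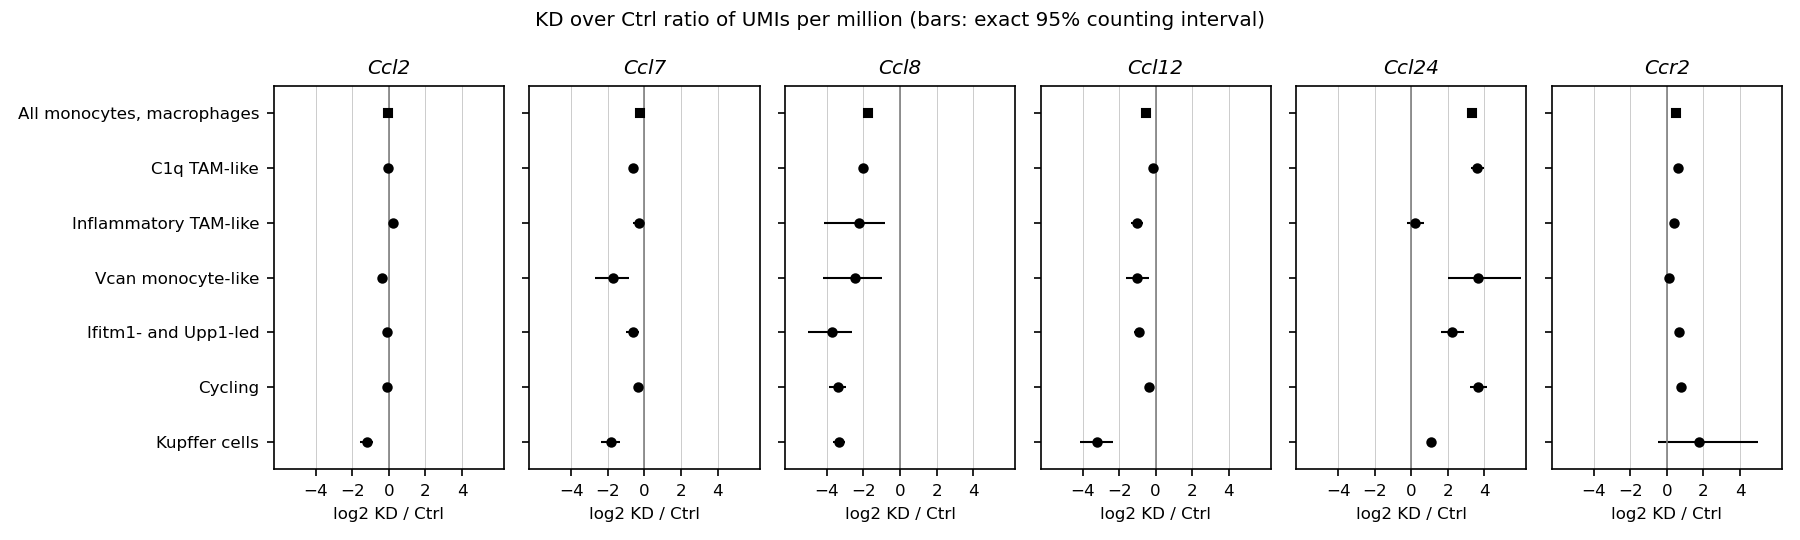
Log2 ratio of KD over Ctrl for each gene in all monocytes and macrophages (square), in their 5 large sub-clusters and in Kupffer cells, with exact 95% counting intervals as bars. Ccl8 lies at -2.01 or below in each sub-cluster and at -3.33 in Kupffer cells, while Ccl24 lies above 0 except in inflammatory TAM-like cells (0.23, -0.24 to 0.68), where its interval holds 0.

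Ccl24 was higher in KD in 4 of 5 sub-clusters, and the share of all genes that were higher in as many was not counted. Granulocyte markers were higher in KD in the same class, at a summed 314 and 1336 CPM with all 11 detected, and in C1q TAM-like cells they stood at 211 and 342 CPM, while in cycling cells they stood at 184 CPM, with Mmp9 at 0, and 5760 CPM. Their part in the ratios was not tested. C1q TAM-like cells had 10.9 CPM in Ctrl (72 UMIs) and 133 CPM in KD (1234 UMIs), a log2 ratio of 3.61 (3.27 to 3.97). The cycling sub-cluster had 11 and 138 CPM, Ifitm1 and Upp1-led cells 12.4 and 59.1 CPM, and Vcan monocyte-like cells 1.38 and 17.4 CPM, the last on 3 Ctrl UMIs. The exception was the inflammatory TAM-like sub-cluster, with 30.8 CPM in Ctrl, the highest of the 5 in that library, and 36.1 CPM in KD. There, the Ctrl UMIs came from 27 cells, or 2.83%, with up to 43 in 1 cell, and the KD UMIs from 19 cells, or 9.27%, with at most 10 in 1 cell. In KD, B cells held 11.5, endothelial cells 13.5 and tumor-like or fibroblast-like cells 14.5 CPM of Ccl24. Vcan monocyte-like cells are near these levels in KD, and the T cell level was also higher in KD. Their direction therefore cannot be told apart from that of the background. KD levels of C1q TAM-like, cycling and Ifitm1 and Upp1-led cells stand well above it.

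A further 2 sub-clusters were nearly absent from Ctrl and rich in Ccl24. The unnamed sub-cluster led by Ltc4s, which encodes the leukotriene C4 synthase and is a marker of some resident macrophages, also carried Cxcl3, Cxcl1 and Il6 and held 22 Ctrl and 551 KD cells. Its Ccl24 level was 63.6 CPM in Ctrl (10 UMIs in 3 cells) and 327 CPM in KD (1553 UMIs in 42.6% of cells), a log2 ratio of 2.36 (1.48 to 3.42). Kupffer markers summed to 1056 CPM in the 22 Ctrl cells, with Vsig4 at 0, and to 168 CPM in the KD cells, with all 7 detected, so the cells of the libraries differed here in more than Ccl24. The unnamed sub-cluster led by Pf4 and Ccl6 held 1 Ctrl and 52 KD cells, had 820 CPM of Ccl24 in KD (169 UMIs in 61.5% of cells), and has Ccl24 among its leading genes. When sub-clusters of which 1 library made up over 90% were left out, the Ccl24 log2 ratio in monocytes and macrophages was 2.76 (2.59 to 2.92), and with sub-clusters weighted alike it was 2.64. Ccl8 in the Ltc4s-led cells was at 0 UMIs in the 22 Ctrl cells and at 38.7 CPM in KD. A sub-cluster almost of 1 library cannot be told apart from a property of that library.

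**Figure D4:**
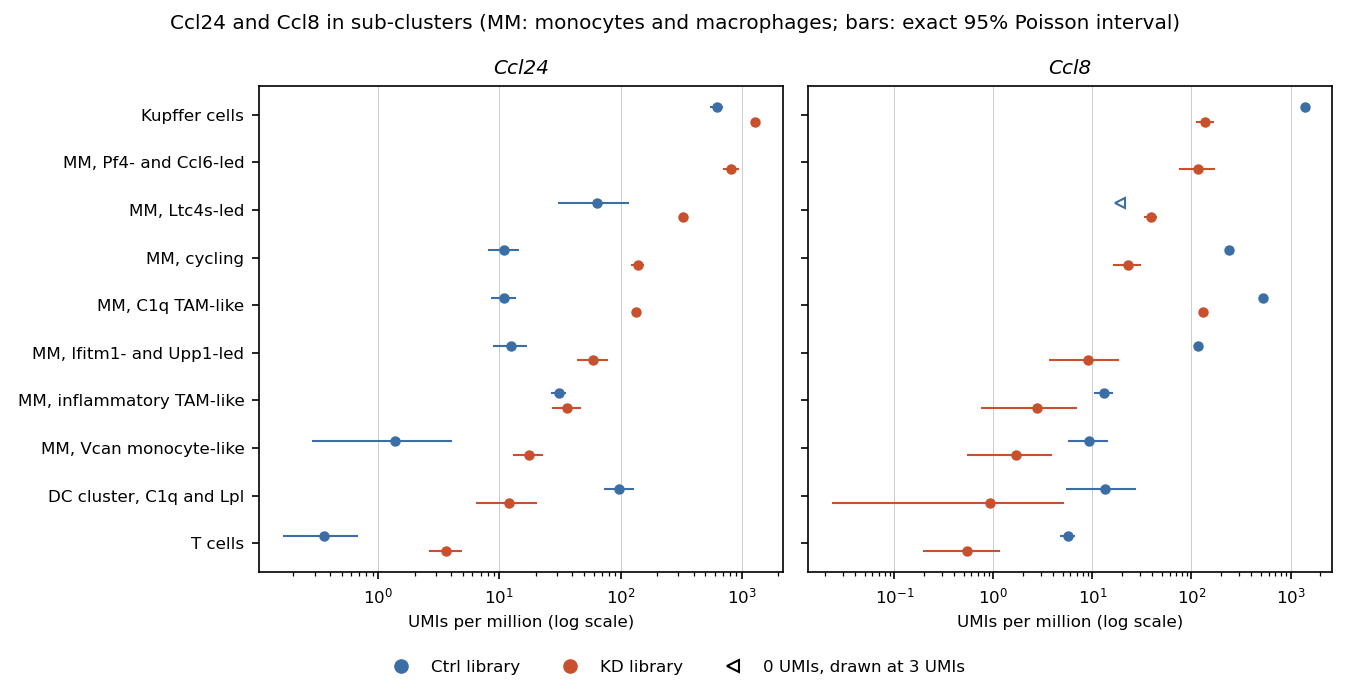
Counts per 1000000 UMIs (CPM, log axis) of Ccl24 and Ccl8 in Kupffer cells, macrophage sub-clusters, the sub-cluster of the cDC cluster that carries C1q genes, Lpl and other macrophage markers, and T cells, with Ctrl in blue, KD in red and exact 95% Poisson intervals; groups of under 10 cells are left out. Ccl24 is highest in Kupffer cells (622 and 1291 CPM) and in the Pf4 and Ccl6-led cells of KD (820 CPM), and Ccl8 is highest in Kupffer cells (1390 and 138 CPM) and C1q TAM-like cells (528 and 131 CPM).

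In Kupffer cells each of the 4 other ligands was lower and Ccl24 higher in KD. Ccl24 had 258 UMIs in Ctrl and 805 in KD, or 622 CPM (548 to 702) and 1291 CPM (1204 to 1384), a log2 ratio of 1.05 (0.85 to 1.26), and was found in 66.0% and 81.9% of cells (35.7% and 62.0% after thinning, medians 7284 and 6835 UMIs). Ccl8 stood at 1390 and 138 CPM, a log2 ratio of -3.33 (-3.68 to -3.0). Its 577 Ctrl UMIs came from 14 of 47 cells, with 196 in 1 cell, and its 86 KD UMIs from 11 of 83 cells. Ccl12 had 190 and 20.9 CPM, a log2 ratio of -3.19 (-4.16 to -2.33), Ccl7 had 253 and 70.6 CPM, a ratio of -1.84 (-2.38 to -1.32), and Ccl2 had 446 and 192 CPM, a ratio of -1.21 (-1.56 to -0.87). Thus 1 of 5 members with at least 50 UMIs was at 1 or above, against 2.52% of 3370 genes, and 4 of 5 at -1 or below, against 2.64%. The Ctrl Kupffer cells are under 50 in number, and intervals from UMIs do not cover how few cells carried them. Markers of T cells summed to 152 CPM in the Ctrl and 19.2 CPM in the KD Kupffer cells, with 4 of the 11, Cd3e, Trbc2, Cd8b1 and Lat, at 0 in KD. Markers of granulocytes moved the other way and by more, from 91.6 CPM in Ctrl, with 5 of the 11 at 0, to 2855 CPM in KD, with Camp at 0. The part of such admixture in the chemokine values was not tested, and granulocytes themselves had 1.63 and 5.51 CPM of Ccl24. The 7 markers of the class itself summed to 7133 and 9364 CPM, with Clec4f at 1301 and 1448 CPM, Timd4 at 448 and 409 CPM and Marco further apart, at 554 and 1258 CPM.

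The ligands were also read in the same cell, after thinning each macrophage to 1500 UMIs. In Ctrl, Ccl2 was detected in 58.2% of the 292 cells with Ccl7 (52.3% to 63.9%) and in 22.7% of the cells without it. In KD the shares were 65.5% of 194 cells and 20.4%. Ccl12 was detected in 38.7% of the Ctrl cells with Ccl7 and in 15.2% of those without, and in 31.4% and 9.72% in KD. Ccl2 and Ccl12 were thus each found more often in cells with Ccl7 than in cells without it in both libraries. Ccl24 was detected in 12.6% of the KD cells with Ccl2 (10.1% to 15.5%) and in 8.92% of those without (7.70% to 10.3%), intervals that overlap.

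Ccr2 went with Ccl8 in the opposite way. Among thinned macrophages it was detected in 15.9% of the 246 Ctrl cells with Ccl8 (11.5% to 21.0%) and in 34.2% of the cells without it, and in KD in 22.1% of 77 cells (13.4% to 33.0%) and 41.9%. Within C1q TAM-like cells alone the shares were 12% of 133 cells and 33.3% in Ctrl, and 21.1% of 57 cells and 43.8% in KD. Ccl7 showed a gap of this kind in Ctrl, with Ccr2 in 20.5% of the cells with Ccl7 (16.1% to 25.6%) and in 34.0% of those without, but not in KD, where the shares were 41.2% and 41.3%. For Ccl12 the intervals overlapped, with Ccr2 in 31.9% of the Ctrl cells with Ccl12 (28.0% to 36.0%) and in 32.9% of those without.

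Among whole classes and unnamed clusters, the receptor Ccr2 was highest in monocytes and macrophages in both libraries, with 6527 UMIs in Ctrl and 8746 in KD. The interval of the next group overlapped in each. That group was an unnamed cluster of 30 and 84 cells in Ctrl (239 CPM, 175 to 319) and the Cadm1 and Slc8a1-led cluster in KD (376 CPM, 340 to 414). The whole NK cluster stood at 173 and 137 CPM. Its NK-like part, described later, stood above monocytes and macrophages in Ctrl and near them in KD. The Ccr2 level of monocytes and macrophages was 280 CPM (273 to 286) and 389 CPM (381 to 398), a log2 ratio of 0.48 (0.43 to 0.52), and it was found in 66.7% and 81.8% of cells (32.7% and 41.3% after thinning). Of all genes in this class, 9.67% had a higher ratio. Its UMIs were spread more evenly than those of the ligands, with 6.86% and 4.95% of them in the top 1% of cells. Among sub-clusters it was highest in Vcan monocyte-like cells, at 481 and 518 CPM, where the log2 ratio of 0.11 (-0.01 to 0.22) held no detectable difference. It was higher in KD in the other 4, with log2 ratios of 0.38 to 0.76, and the share of all genes that were so was not counted. The highest ratio was in cycling cells, at 204 and 346 CPM. C1q TAM-like cells stood at 251 and 387 CPM, a log2 ratio of 0.62 (0.54 to 0.71). The gap between monocyte-like and C1q TAM-like cells was therefore narrower in KD. Kupffer cells, which arise apart from circulating monocytes, were near the bottom of the order, with 2 Ctrl and 10 KD UMIs in 2.13% and 6.02% of cells. Tumor-like or fibroblast-like cells, which should lack the receptor, held a UMI in 3.11% and 5.26% of cells (medians 12040 and 13914 UMIs).

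**Figure D5:**
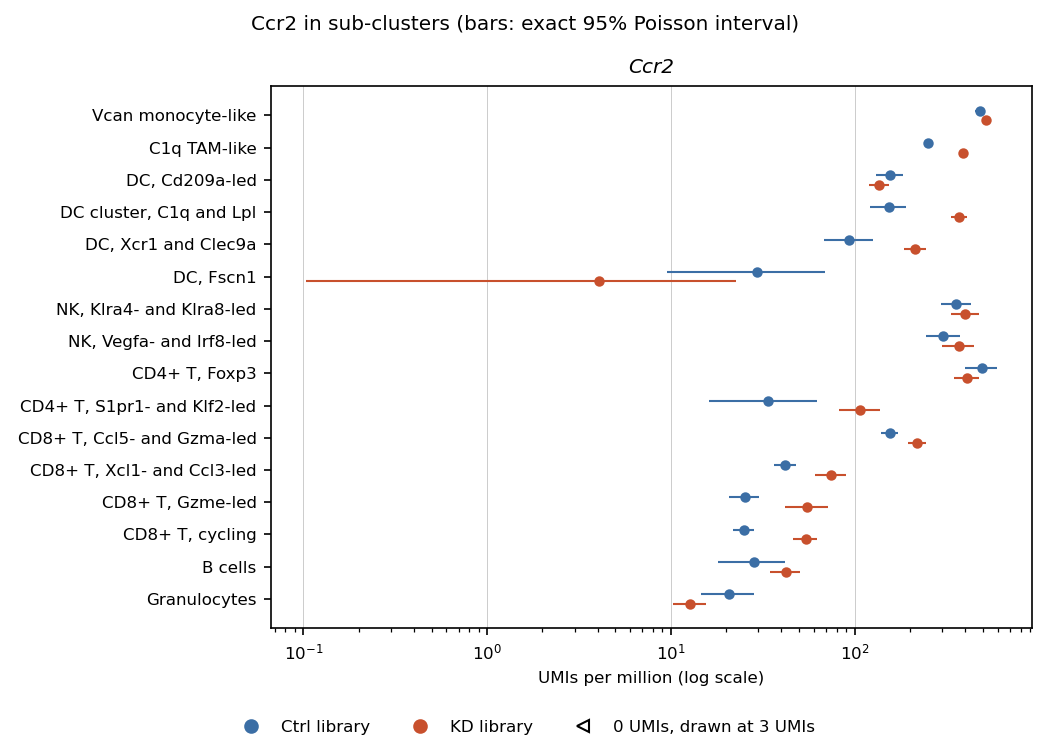
Counts per 1000000 UMIs (CPM, log axis) of Ccr2 in sub-clusters of macrophages, dendritic cells, NK cells and T cells, and in B cells and granulocytes, with Ctrl in blue, KD in red and exact 95% Poisson intervals. Vcan monocyte-like cells (481 and 518 CPM) and Foxp3-led CD4+ cells (491 and 408 CPM) lie highest, and each of the 4 largest CD8+ sub-clusters is higher in KD.

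In CD8+ T cells (2878 Ctrl and 1083 KD cells), Ccr2 had 1090 and 817 UMIs, or 46.2 CPM (43.5 to 49.0) and 94.9 CPM (88.5 to 102), a log2 ratio of 1.04 (0.91 to 1.17). It was found in 21.0% and 34.4% of cells (7.48% and 14.2% after thinning, medians 7052.5 and 6910 UMIs), and 1.79% of 12259 genes had a log2 ratio of at least 1 in these cells. Markers of monocytes and macrophages, all 15 of which were detected, summed to 492 and 501 CPM in these cells. The 11 granulocyte markers, all detected, summed to 104 and 982 CPM, and most of their KD UMIs (6989 of 8457) lay in a sub-cluster of 48 KD cells. The Ccr2 ratio was 1.07 without that sub-cluster and the others led by genes of other lineages. The sub-cluster led by Ccl5 and Gzma, which has Ccr2 among its leading genes, stood highest, at 155 and 219 CPM, a log2 ratio of 0.50 (0.28 to 0.72). The cycling sub-cluster had 25.0 and 54.2 CPM, the Gzme-led one 25.2 and 55.2 CPM and the one with Xcl1 and Ccl3 41.9 and 74.4 CPM. Each of these 4 was thus higher in KD beyond counting error, and the share of all genes that were so was not counted. That Ccl5 and Gzma-led sub-cluster held 583 Ctrl cells and 322 KD cells, and Ccr2 was found in 35.3% and 46.0% of them.

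In CD4+ T cells the level of Ccr2 was 112 CPM in Ctrl and 125 CPM in KD, a log2 ratio of 0.16 (-0.11 to 0.44). Within them the sub-cluster with Foxp3, the transcription factor of regulatory T cells, stood at 491 and 408 CPM, a log2 ratio of -0.27 (-0.64 to 0.11), and the sub-cluster with S1pr1 and Klf2 at 33.9 CPM (10 UMIs) and 107 CPM (60 UMIs), a log2 ratio of 1.66 (0.69 to 2.79). NK-like cells were taken from the 2 sub-clusters of the NK cluster with at least 8 of 9 NK markers (155 and 135 cells). Several other parts of it carried T cell genes, and a sub-cluster with 4 of 9 NK markers (19 and 85 cells) was also left out. T cell markers in the NK-like cells summed to 631 and 750 CPM, with 10 of 11 detected in each library. The NK-like cells had 332 and 385 CPM of Ccr2, a log2 ratio of 0.21 (-0.07 to 0.50). B cells had 28.3 and 42.2 CPM on 24 and 114 UMIs, and granulocytes 20.7 and 12.7 CPM, a log2 ratio of -0.70 (-1.26 to -0.12).

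In conventional dendritic cells (cDCs, 387 and 588 cells), Ccr2 stood at 117 and 200 CPM, a log2 ratio of 0.77 (0.59 to 0.95), but not in each kind. The sub-cluster with Xcr1 and Clec9a, markers of cross-presenting dendritic cells, had 93.4 and 214 CPM, a log2 ratio of 1.20 (0.72 to 1.70). The sub-cluster led by Cd209a had 155 and 136 CPM, a ratio of -0.19 (-0.49 to 0.11). The sub-cluster with C1q genes and Lpl, which met 10 of the 15 macrophage markers, had 153 and 370 CPM, a ratio of 1.27 (0.92 to 1.64), while its summed macrophage markers were 1986 and 2722 CPM and its summed granulocyte markers 619 and 1847 CPM, with 10 of 11 detected in each library. Over all cDCs the granulocyte markers summed to 404 and 1117 CPM. This sub-cluster also held all 51 Ctrl UMIs of Ccl24 among cDCs, in 2 of its 80 cells, so the lower Ccl24 level of KD cDCs (18.6 and 4.90 CPM, a ratio of -1.92) rested on 2 cells. Endothelial cells had 4 Ctrl and 110 KD UMIs of Ccr2, or 3.48 and 25.6 CPM, the KD ones in 40 of 646 cells. All 15 macrophage markers were detected among endothelial cells, at a summed 2575 and 3188 CPM, granulocyte markers summed to 53.1 CPM, with Cxcr2 and Retnlg at 0, and 1492 CPM, and Ccr1, another myeloid receptor, had 7.84 and 28.9 CPM there. The part of other cells in these endothelial values was not tested. Their 87 KD UMIs of Ccl12 came from 13 cells, with 61 in 1 cell.

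The receptors of the other ligands were sparse. Ccr3, which binds CCL24, had 41 UMIs in Ctrl and 36 in KD over all cells. Of these, granulocytes held 10 and 17, CD8+ T cells 14 and 4, CD4+ T cells 0 and 11, and Kupffer cells 9 and 0. Ccr8, the receptor of mouse CCL8, had 127 and 266 UMIs, of which CD8+ T cells held 71 and 35 and CD4+ T cells 43 and 197. Its level was 3.01 and 4.06 CPM in CD8+ T cells. In CD4+ T cells it was 27.8 and 75.8 CPM, a log2 ratio of 1.45 (0.96 to 1.96). The Foxp3-led CD4+ cells had 60.2 and 135 CPM of Ccr8. The atypical receptors that take up CC chemokines were found mainly in endothelial cells, where Ackr1 had 87.1 and 85.9 CPM and Ackr2 40.1 and 54 CPM. Ccl11, the other main eotaxin of mice, had 41 UMIs in Ctrl and 1 in KD over all cells.

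The members were set beside the rest of their pathway in monocytes and macrophages, where genes with at least 50 UMIs were counted. Of 16 other CC chemokines 10 were counted, of which 4 had a log2 ratio of at least 1 and 0 were at -1 or below, with a median of 0.18. Ccl6 had 574 and 1568 CPM, Ccl9 156 and 446 CPM, and both were higher in KD Kupffer cells as well (528 and 1567 CPM, and 9.64 and 138 CPM), whereas Ccl1 and Ccl17 were low in both libraries, at 63 KD UMIs or fewer. Ccl3 had 280 and 258 CPM and Ccl4 916 and 915 CPM, and Ccl5, which attracts T cells, had 440 and 258 CPM. Of 14 other receptors 6 were counted, 1 was at 1 or above (Ackr3, with 17 and 58 UMIs) and 0 at -1 or below, with a median of -0.34. Ccr1, another receptor of myeloid cells, stood at 175 and 174 CPM and did not share the higher level of Ccr2.

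Lists of macrophage states were read in the same class, each described by counts and a median with no test, and all share these 2 libraries. Of 12 genes of classical monocytes, 4 were at 1 or above (Vcan, F13a1, Hp and Fn1) and 0 at -1 or below, with a median of 0.86. Ly6c2, the classical monocyte surface marker, had 250 and 162 CPM, so it did not go with Ccr2. Of 14 genes of resident macrophages 12 were counted and 10 were at 1 or above, with a median of 2.22, among them Pf4 (44.5 and 258 CPM), Ltc4s (5.53 and 51.1 CPM) and Folr2 (4.63 and 15.1 CPM). Some of the 10 rested on few Ctrl UMIs, such as Lyve1 (4), Cd163 (2), Vsig4 (8) and Cbr2 (12). Pf4, Ltc4s and Folr2 are among the leading genes of sub-clusters nearly absent from Ctrl, and the part of those cells in the median was not tested. Of 17 genes of type 2 and alternative activation 13 were counted, 5 at 1 or above and 1 at -1 or below, with a median of 0.75. Chil3 had 92.6 and 619 CPM, Arg1 216 and 566 CPM and Mrc1 56.3 and 161 CPM, and the others at 1 or above, Retnla and Cd163, rested on 2 Ctrl UMIs each. Tgm2 went the other way, at 537 and 224 CPM, as did Pdcd1lg2, at 94.0 and 49.6 CPM. Il4ra, which receives the signal of interleukin 4, had 110 and 81.9 CPM and Stat6 41.5 and 43.0 CPM. Of 17 interferon-stimulated genes all were counted, 0 at 1 or above and 9 at -1 or below, with a median of -1.06, among them Cxcl9 (1577 and 607 CPM) and Cxcl10 (1383 and 503 CPM). None of the 6 eosinophil genes reached 50 UMIs in this class, where they had 8 and 42 UMIs in all. How far the member values go with these lists was not tested.

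In Kupffer cells, interferon-stimulated genes had a median of -0.28 over 12 genes counted, with 0 at 1 or above. Of 10 resident macrophage genes counted there, 1, Marco, was at 1 or above and 0 at -1 or below, with a median of 0.33. The resident macrophage list includes all 7 markers by which the class was named, which partly sets these values. How alike the Kupffer cells of the libraries were cannot be read from them. Of 5 other CC chemokines counted, Ccl6 and Ccl9 were at 1 or above and Ccl3 and Ccl4 at -1 or below, with a median of 0.84. Classical monocyte genes had a median of 0.45 over 3 genes, type 2 genes a median of -0.17 over 6 with 1 at -1 or below (Pdcd1lg2), and other receptors a median of -0.72 over 2 with 1 at -1 or below (Ccrl2).

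Over 36 profiles of 20 cell groups in the 2 libraries, which share depth and free RNA, the genes with the pattern most like each member were named by Pearson's r of log2(CPM + 1) among 13440 genes. For Ccl24 they were Ltc4s (0.87), Lpl (0.85) and Pf4 (0.84), for Ccl12 Gbp2b, C1qb and Fcgr1 (0.90 each), and for Ccl7 Pdlim4 (0.91), C3ar1 (0.88) and C1qc (0.87). For Ccl2 they were Nupr1 (0.91), Eif4ebp1 (0.91) and Anxa3 (0.88), and for Ccr2 Pycard (0.83) and Sulf2 (0.81). Ccl8 had the least close neighbours, Cxcl14 (0.74), Cox4i2 and Fblim1 (0.73 each). Among the members, Ccl2 with Ccl7 and Ccl7 with Ccl12 had the highest r (0.87 each), Ccl24 with Ccl8 had 0.36, and Ccr2 had 0.12 to 0.52 with the ligands.

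Over all kept cells together, where fewer cells of a type and less RNA per cell cannot be told apart, the level of Ccl24 was 11.8 CPM for Ctrl and 75.3 CPM for KD, and that of Ccl8 was 106 and 27.8 CPM. Ccl2 had 229 and 197 CPM, Ccl7 60.3 and 46.5 CPM, Ccl12 104 and 72.6 CPM, and Ccr2 147 and 204 CPM. Monocytes and macrophages were 32.7% of the kept Ctrl cells and 25.8% of the kept KD cells, and the CD45+ selection can set such shares.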

How the data were processed

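The deposited files hold raw UMI counts per gene and cell barcode for 2 libraries, 1 per group. Per the labels and the submitters' processing notes, the authors made them with Cell Ranger 7.1.0 on GRCm39 and did not normalize these counts, and the notes also list Seurat 5.1.0 and R 4.4.1. Every deposited barcode holds at least 500 UMIs. Samples were grouped by the hairpin in the labels.

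A cell was kept (19999 of 21359) if it had 200 to 6000 detected genes, no more than 30000 UMIs, and no more than 10% of them mitochondrial. These limits follow the methods of the study and were the only treatment of doublets in the values given. As an alternative, the highest Scrublet scores were left out at 0.8% per 1000 cells (771 Ctrl and 830 KD cells, scanpy 1.11.5). Kept cells were log-normalized and clustered in Seurat 5.3.0 (R 4.3.3) with 2000 variable genes, without Ccl, Cxcl, Ccr, Cxcr and Ackr genes, 20 principal components and resolution 0.5, and the classes of interest were clustered again in the same way. A cluster was named when at least 3 listed markers had a log2 fold of at least 1 (0.5 in sub-clusters) in at least 10% of cells and its 10 leading genes did not go against the name. Names rebuilt here may differ from those of the study.

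UMIs were summed per class and library (Python 3.11.15, scipy 1.17.1). Intervals are exact Poisson for sums, exact Clopper-Pearson for shares and exact conditional binomial for ratios. They cover counting error only. A count of 0 was drawn at 3 counts. Thinning to 1500 UMIs left out 745 Ctrl and 593 KD cells. The interval and ratio code was tested on simulated data. No test was made, since each group is 1 library.

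The members and all 7 gene lists were chosen with earlier results of these data known. The text names the members, genes of the lists, markers, and for each member the 3 genes with the highest Pearson's r over groups of at least 50 cells per library, among genes with at least 200 UMIs. Some genes that this rule names are not reported here. Genes named beyond these, among them leading genes of clusters, and the choice of NK sub-clusters were picked with their values in view. Promoter windows came from the RefSeq annotation of GRCm38.p6. The alternatives were a stricter cell filter, removal of likely doublets, resolution 1, chemokine genes kept for clustering, classes from single cells, thinned counts, TMM scaling (edgeR 4.0.16), equal weights for cells or sub-clusters, and sub-clusters left out.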

Additional observations from a re-analysis of the deposited data

Results flagged for a closer look

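For 4 members, the ratio of KD over Ctrl went one way in one cell class and the opposite way in another, beyond the counting interval in both. How many of all genes do the same was not counted, so this is not shown to be particular to the members. With 1 library per group, the difference between the classes was not tested. The log2 ratio of Ccl2 was 0.69 in cDCs (0.27 to 1.12) and -1.21 in Kupffer cells (-1.56 to -0.87). That of Ccl12 was 1.73 in endothelial cells (0.63 to 3.09) and -3.19 in Kupffer cells (-4.16 to -2.33), and in KD 61 of the 87 endothelial UMIs came from 1 cell. That of Ccl24 was 3.34 in monocytes and macrophages (3.18 to 3.50) and -1.92 in cDCs (-2.66 to -1.21), where the 51 Ctrl UMIs came from 2 cells. That of Ccr2 was 2.88 in endothelial cells (1.48 to 4.78), on 4 Ctrl UMIs, and -0.70 in granulocytes (-1.26 to -0.12).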

How the results depend on the processing

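Of 81 values recomputed under an alternative for the 6 genes in monocytes and macrophages and for Ccr2 in CD8+ T cells, 62 stayed within the counting interval, 19 moved beyond it and 0 changed direction. Without sub-clusters with over 90% of their cells from 1 library, the log2 ratio was -0.13 for Ccl2, -0.38 for Ccl7, -1.61 for Ccl8, -0.23 for Ccl12 and 2.76 for Ccl24. With sub-clusters weighted alike it was -0.38 for Ccl7, -2.10 for Ccl8, -0.36 for Ccl12 and 2.64 for Ccl24. With classes from single cells it was -0.32 for Ccl7, -1.90 for Ccl8, 3.09 for Ccl24 and 0.89 for Ccr2 in CD8+ T cells. Thinned counts gave -1.56 for Ccl8 and 0.39 for Ccr2 in macrophages, and equal weights for cells gave 2.89 for Ccl24. Of the alternatives chosen after seeing the data, adding the cluster led by Cadm1 and Slc8a1 gave -0.0037 for Ccl2, and leaving out sub-clusters led by genes of other lineages gave -0.11 for Ccl2 and -0.31 for Ccl7. The cause of these shifts was not tested. The stricter cell filter, removal of doublets, resolution 1, chemokine genes kept for clustering and TMM scaling moved none of them beyond the interval.

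No paired analysis was possible because each group has 1 library, which also leaves no replicate to omit. The 3 mice of a group cannot be separated, and the spread between mice is unknown. Depth limits the values on few UMIs, such as Ccl8 in KD monocyte-like cells or Ccl24 in Ctrl classes outside Kupffer cells and macrophages.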
